A study of Mus musculus with 16 samples.

Results

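The S100 calcium-binding proteins were examined in CD11b+ cells sorted from mouse tumours. The 8 genes (S100a4, S100a6, S100a8, S100a9, S100a10, S100a11, S100a1 and S100a13) were chosen by their symbols, with earlier red-green results of these data known, from the 24421 genes counted. Their values and the p-values beside them are therefore a description of these libraries and not independent evidence. All 8 were listed in every library, and 6 passed the filter on low counts that left 9642 genes for testing. S100a8 and S100a9 did not pass it.

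Bulk RNA-seq was performed on 16 libraries of CD11b+ cells from subcutaneous MC38-Ova tumours, a mouse colon carcinoma line that carries ovalbumin. The hosts were female C57BL/6 Kaede transgenic mice, in which violet light turns the green Kaede protein of host cells red, and the methods give their age only as a range for all mice of the study. Kaede-green cells (MG24 and MG72) entered the tumour after it was lit, and Kaede-red cells (MR24 and MR72) were already there, with tumours collected 24h or 72h later and 4 libraries in each group. Cells of every group were live, CD45+, TER119-, Kaede+, CD11b+ and NK1.1-, the treatment label of every group is a control, and all libraries carry one batch label. The sort did not separate monocytes, macrophages and neutrophils, and the supplement describes the samples as tumours from independent mice without tying a green to a red library.

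S100 proteins are small proteins with a pair of calcium-binding EF-hand motifs, and most act as dimers that bind partner proteins when calcium rises. Inside the cell, S100a4, S100a6, S100a10 and S100a11 act on the cytoskeleton, membranes and annexins. S100a8 and S100a9 form calprotectin, which is abundant in neutrophils and classical monocytes, is released as a danger signal and is read by Tlr4 and by the receptor for advanced glycation end products.

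Depth and RNA content differed between the colours. Total counts were between 3216858 and 15423085 per library, and the ribosomal RNA gene Rn45s took 79.0 to 93.4% of them in Kaede-green and 55.8 to 84.9% in Kaede-red libraries. Counts outside Rn45s were 468092 to 912689 in Kaede-green and 758192 to 5472477 in Kaede-red libraries, and these ranges overlap. The 8 S100 genes together held 0.182 to 0.296% of the counts outside Rn45s in Kaede-green libraries and 0.106 to 0.172% in Kaede-red libraries, with no overlap. Itgam, which encodes CD11b, had 151 to 6912 counts and the macrophage receptor gene Csf1r 53 to 5050. Of the neutrophil genes, Mpo, Elane, Camp and Ngp had 0 to 3 counts in any library, whereas Csf3r had 12 to 726, Il1r2 12 to 520, Trem1 9 to 228 and the granule gene Mmp8 1 to 134.

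All 8 genes lie on mouse chromosome 3 in mm10. S100a1, S100a13, S100a4, S100a6, S100a8 and S100a9 span 184.7 kb (chr3:90511034-90695721), and S100a11 and S100a10 lie together farther along (chr3:93520488-93564643) with 28.79 kb between them. S100a1, on the reverse strand, and S100a13, on the forward strand, start head to head with 42 bases between them. Upstream sequence of 120 bases was found in the RefSeq table for 7 of the 8 genes and was searched on both strands for a TATA box, spelled TATAAA, for the letters of an AP-1 site, spelled TGANTCA, for those of a C/EBP site, spelled TTGCNNAA, and for a GC box, spelled GGGCGG. A match was present in 3 of the 7, and of 32851 promoter windows of the same length 6.341% held the TATA box, 3.409% the AP-1 letters, 4.152% the C/EBP letters and 26.48% the GC box. These matches describe letters in a window and say nothing of binding in these cells. The windows of 3 genes, all on the forward strand, are shown as examples, with matches in capitals (RefSeq on GRCm38.p6). They were picked with the levels known, and S100a13, not shown, moved by a fold close to that of S100a6. S100a4 (chr3:90603650-90603769) was lower in Kaede-red cells at both times, and S100a6 (chr3:90612774-90612893) was lower by a smaller fold. S100a11 (chr3:93520376-93520495) had changes of opposite sign at the time points, which depended on the scaling. A link between these letters and the levels was not tested.
S100a4: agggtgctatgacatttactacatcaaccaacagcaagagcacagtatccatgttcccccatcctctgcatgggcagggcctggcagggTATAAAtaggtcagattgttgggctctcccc
S100a6: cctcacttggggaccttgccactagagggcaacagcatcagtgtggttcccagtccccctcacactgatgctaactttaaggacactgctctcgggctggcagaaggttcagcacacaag
S100a11: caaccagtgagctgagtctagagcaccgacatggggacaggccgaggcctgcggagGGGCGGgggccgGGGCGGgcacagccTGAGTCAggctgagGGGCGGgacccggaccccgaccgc
The S100a4 window held a TATA box that began 31 bases before the start and no GC box, the S100a6 window held none of the motifs, and the S100a11 window held 3 GC boxes (64, 52 and 24 bases before the start) and an AP-1 match 38 bases before it, none of which overlap.

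Levels of different genes were compared per length, as TMM-scaled CPM (counts scaled to a common library size) divided by the length in kb of the longest principal transcript. In MG24 libraries S100a4, which binds non-muscle myosin and is linked to cell motility, had the highest level at 429 ± 69.1 CPM per kb (SD, n = 4). S100a6 (252 ± 65.0) and S100a10 (252 ± 51.7) followed on the same scale and could not be ordered by their spread. S100a11 stood at 74.8 ± 34.1, S100a13 at 20.5 ± 4.12 and S100a1 at 6.49 ± 0.886 CPM per kb, and these 3 did not overlap. S100a8 (0.971 ± 1.09) and S100a9 (0.197 ± 0.394) were last and overlapped each other. S100a6 and S100a10 have shorter principal transcripts as well, and with those lengths their ranges overlapped that of S100a4 in both groups of Kaede-green libraries.

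The order was another one in Kaede-red libraries. In MR24 libraries S100a6 was the highest at 111 ± 9.80 CPM per kb, above S100a10 (82.0 ± 8.62) and S100a4 (81.7 ± 10.1), whose ranges overlapped each other. In MR72 libraries S100a6 (82.6 ± 24.1), S100a11 (71.4 ± 6.30), S100a4 (69.4 ± 32.2) and S100a10 (61.0 ± 17.7 CPM per kb) overlapped in range, so that these 4 neighbours could not be ordered. In MG72 libraries S100a4 was again at the top with 341 ± 56.7 CPM per kb, and S100a10 (208 ± 54.4) and S100a6 (185 ± 16.1) overlapped.

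The comparison of Kaede-red with Kaede-green cells asks how transcripts change with time spent in the tumour. Over both times, 4 of the 6 tested S100 genes fell (S100a4, S100a10, S100a13 and S100a6), none rose, and S100a11 and S100a1 did not pass the quasi-likelihood test of edgeR (p adjusted by Benjamini-Hochberg over all tested genes, called under 0.05). Of all tested genes 20.2% were called in either direction and 10.3% were called lower. At 24h, 5 of the 6 were called lower and none higher (all genes: 7.51% in either direction, 4.3% lower, 3.2% higher). DESeq2 called 4 lower, without S100a11 (-0.89, adjusted p = 0.0685), and called 905 genes in either direction. With scaling by the total outside Rn45s 2 were called lower, beside 4647 of the 9642 tested genes called in either direction. At 72h 4 were called lower and 1 higher (all genes: 16.8% in either direction, 8.76% lower, 8.07% higher). Among tested genes with exon lengths under 750 bp the share called lower was larger, 21.9% at 24h and 55.3% at 72h. The median log2 fold change of the 6 was -1.21 over both times, beside 0.057 over all tested genes. In bulk samples, fewer cells of a type and less RNA of a gene per cell cannot be told apart.

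**Figure D1:**
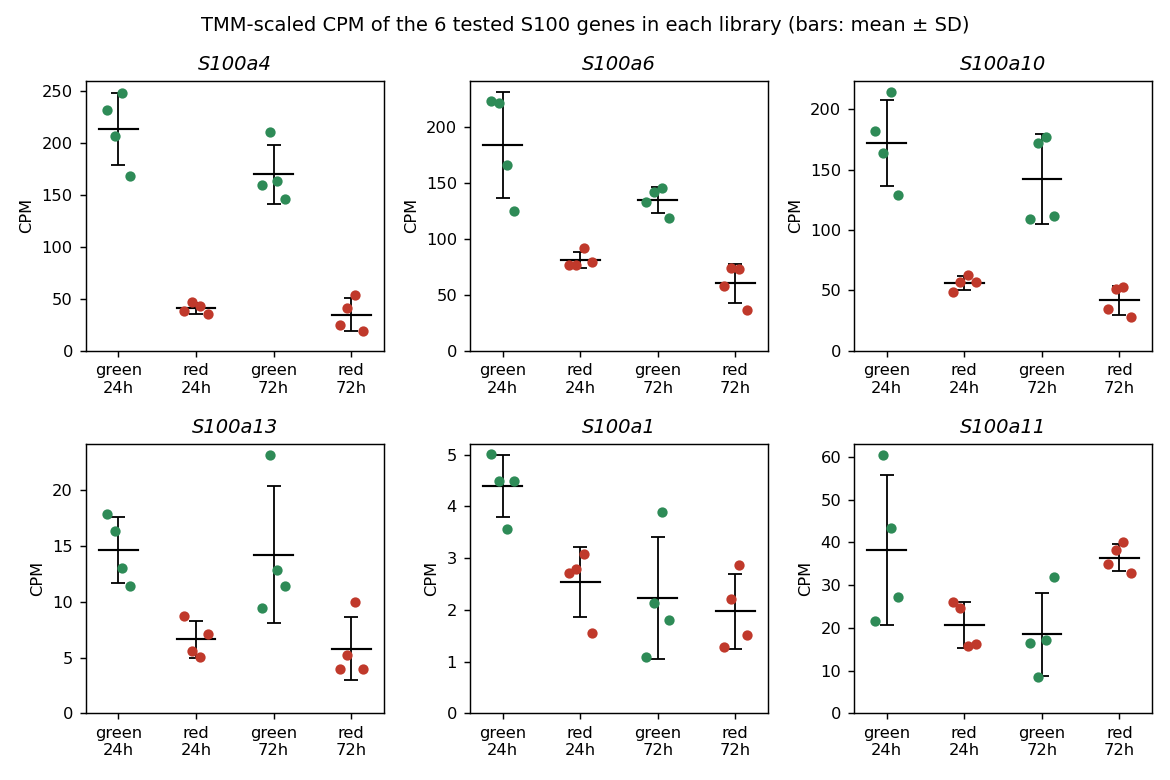
TMM-scaled CPM of the 6 tested S100 genes (y axis, from 0) in the 4 libraries of each group (x axis), with points for libraries and black bars for mean ± SD. The red points of S100a4, S100a6 and S100a10 lie below all green points at both times, while those of S100a11 lie above the green points at 72h.

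S100a4 showed the widest separation. Its CPM were 231, 207, 248 and 169 in the MG24 libraries and 37.9, 46.5, 43.1 and 35.3 in the MR24 libraries. At 72h they were 159, 211, 163 and 146 in MG72 and 24.7, 41.1, 53.9 and 18.6 in MR72 libraries. Every Kaede-red library was therefore below every Kaede-green library, across time points too. The log2 fold change was -2.35 (SE 0.17, adjusted p = 3.67e-11, edgeR) over both times, a level 5.11-fold lower, with -2.39 (SE 0.25, adjusted p = 9.77e-08) at 24h and -2.31 (SE 0.25, adjusted p = 2.14e-07) at 72h. An exon of S100a4 overlaps Gm42674 on the same strand, a gene not in the count table, and reads of both cannot be told apart.

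S100a10, the light chain partner of annexin A2, had the next largest fold. Its CPM were 182, 163, 214 and 129 in MG24, and 48.4, 56.8, 62.8 and 56.5 in MR24 libraries. In MG72 libraries it had 109, 172, 177 and 111 CPM, and in MR72 libraries 34.9, 50.8, 53.1 and 28.3. The colours did not overlap at either time, and the red libraries were all below the green ones. The log2 fold change was -1.70 (SE 0.16, adjusted p = 3.16e-09, edgeR) over both times, and the values at 24h and 72h were -1.62 and -1.78.

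S100a6, known as calcyclin and a ligand of the ubiquitin-pathway protein Cacybp, moved the same way by a smaller fold. Its CPM were 224, 222, 166 and 125 in MG24, and 76.4, 77.1, 91.8 and 79.8 in MR24 libraries. At 72h they were 133, 142, 145 and 119 in MG72, and 57.6, 74.0, 73.4 and 36.6 in MR72 libraries. The lowest green library stayed above the highest red library. The log2 fold change was -1.17 (SE 0.15, adjusted p = 7.33e-07, edgeR) over both times, and the values at 24h and 72h were -1.18 and -1.16. With scaling by the total outside Rn45s it was -0.41 (adjusted p = 0.0104) over both times and -0.26 (adjusted p = 0.245) at 24h, where the call was lost. On TMM-scaled CPM, S100a4, S100a6 and S100a10 were thus the 3 S100 genes without overlap between colours over both times. Of all tested genes 1.74% were lower and 1.19% higher without overlap. At 24h 5 of the 6 were lower without overlap (these 3, S100a1 and S100a13), as were 5.44% of all tested genes, with 7.07% higher. At 72h these 3 were lower and S100a11 higher, beside 9.52% lower and 13% higher of all tested genes. The lack of overlap depends on the scaling. As shares of the counts outside Rn45s, S100a6 overlapped at both times, and S100a1 and S100a13 at 24h. For S100a6, MG24 replicate 4 had 307 of 468092 such counts and MR24 replicate 3 had 507 of 758192.

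S100a13, which takes part in the release of proteins that lack a signal peptide, was expressed at lower CPM than these 3. It had 17.8, 16.3, 13.01 and 11.4 CPM in MG24, and 8.76, 5.59, 5.07 and 7.09 in MR24 libraries. In MG72 libraries it had 9.47, 23.1, 12.9 and 11.4 CPM, and in MR72 libraries 3.98, 5.26, 9.96 and 3.99. The colours were apart at 24h and overlapped at 72h through 1 library of each colour. The log2 fold change was -1.24 (SE 0.21, adjusted p = 5.17e-05, edgeR) over both times, -1.11 (adjusted p = 0.0204) at 24h and -1.37 (adjusted p = 0.00113) at 72h. With scaling by the total outside Rn45s it was -0.20 (adjusted p = 0.564) at 24h and the call was lost.

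S100a1, best known from heart muscle, where it binds calcium-handling proteins, was low at 1.09 to 5.01 CPM and 3 to 88 counts per library. Its means were 4.39 ± 0.600 CPM in MG24 and 2.53 ± 0.675 in MR24 libraries (SD, n = 4), without overlap, and 2.23 ± 1.19 in MG72 and 1.97 ± 0.716 in MR72 libraries, which overlapped. The log2 fold change was -0.54 (SE 0.30, adjusted p = 0.214, edgeR) over both times and turned to 0.21 when libraries were scaled by their total outside Rn45s. The head-to-head pair S100a1 and S100a13 thus differed in call, though a difference between the pair was not tested.

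**Figure D2:**
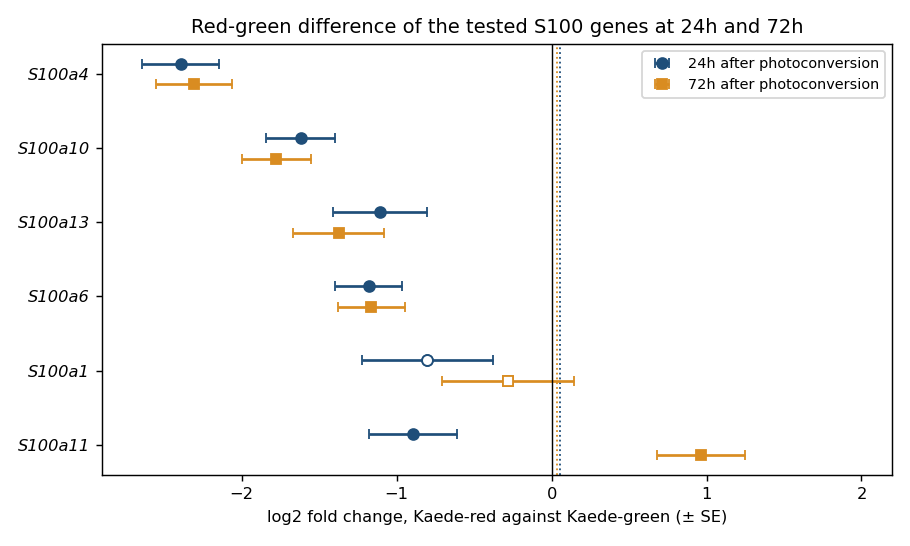
Log2 fold change of Kaede-red against Kaede-green (x axis) with bars of 1 SE for each tested S100 gene (y axis), with circles for 24h and squares for 72h. Filled symbols passed the test, dotted lines mark the median over all tested genes, and S100a11 lies at -0.89 at 24h and 0.96 at 72h.

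S100a11, which binds annexin A1 and takes part in membrane repair, did not follow the other genes. It had 21.7, 60.5, 43.4 and 27.3 CPM in MG24, and 26.0, 24.8, 15.7 and 16.3 in MR24 libraries, which overlapped. In MG72 libraries it had 16.4, 8.53, 17.3 and 31.9 CPM, and in MR72 libraries 35.0, 38.1, 40.0 and 32.8, so that every red library was above every green one at 72h. The log2 fold change was -0.89 (SE 0.28, adjusted p = 0.0476, edgeR) at 24h, where it turned to 0.0048 with scaling by the total outside Rn45s, and 0.96 (SE 0.28, adjusted p = 0.0166) at 72h. The change of the red-green difference from 24h to 72h was 1.86 on the log2 scale (SE 0.40, adjusted p = 0.0281), and S100a11 was the 1 S100 gene called in that test beside 0.767% of all tested genes called, 0.436% higher and 0.332% lower. The call on that change was lost in 8 of 16 fits that left out 1 library, those without MG24 replicate 2 or 3, MR24 replicate 3 or 4, MG72 replicate 2 or 3, or MR72 replicate 1 or 2, with a lowest value of 1.55 (adjusted p = 0.0721, without MG24 replicate 2). The 24h call was lost in 8 of 16 such fits, those without MG24 replicate 2 or 3, MR24 replicate 2, 3 or 4, or MR72 replicate 1, 2 or 3 (-0.61 and adjusted p = 0.221 without MG24 replicate 2), and the 72h call was lost without MG72 replicate 1, 2 or 3 (lowest value 0.70). A processed pseudogene, S100a11-ps, is annotated on chromosome 12 and is not in the count table, so that reads from near-identical copies are uncertain.

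Within a colour, the comparison of 72h with 24h asks whether cells that had been in or entered the tumour over a longer span differed. In Kaede-green cells 0 of the 6 S100 genes were called by edgeR (all genes: 0%), where 835 genes had an unadjusted p under 0.05 and DESeq2 called 14 genes. No S100 gene was without overlap between the times in Kaede-green cells, beside 1.9% of all tested genes that were higher and 1.09% that were lower. In this comparison S100a11 had a log2 fold change of -1.05 (adjusted p = 0.359) and S100a6 one of -0.45 (adjusted p = 0.563). In Kaede-red cells 0 of the 6 were called by edgeR (all genes: 8.67%, with 4.91% higher and 3.76% lower), where S100a11 had 0.81 (SE 0.27, adjusted p = 0.058). All 4 MR72 libraries were above all 4 MR24 libraries for S100a11, as for 11.8% of all tested genes, and all 4 were below for S100a6 (log2 fold change -0.43, adjusted p = 0.219), as for 8.76% of all tested genes.

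S100a8 and S100a9 were close to absent. S100a8 had 0 to 12 counts per library, 58 counts in all and at least 1 count in 13 of 16 libraries. S100a9 had 0 to 21 counts, 73 in all and at least 1 count in 12 libraries. In MG24 libraries S100a8 had 0, 1, 1 and 3 counts and S100a9 0, 1, 0 and 0, and in MR24 libraries S100a8 had 4, 0, 2 and 9 and S100a9 0, 1, 2 and 21. At 72h S100a8 had 1, 5, 4 and 6 counts in MG72 and 12, 2, 0 and 8 in MR72 libraries, and S100a9 had 7, 1, 4 and 3 in MG72 and 7, 14, 3 and 9 in MR72 libraries. Library totals differ severalfold between groups, so that raw counts do not order the groups.

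Pooled over the 4 libraries of a group, S100a8 stood at 0.471 CPM in MG24 (95% exact Poisson interval 0.153 to 1.10), 0.369 in MR24 (0.206 to 0.608), 1.14 in MG72 (0.653 to 1.86) and 0.184 in MR72 (0.115 to 0.279). S100a9 stood at 0.0942 CPM in MG24 (0.00239 to 0.525), 0.590 in MR24 (0.378 to 0.878), 1.07 in MG72 (0.600 to 1.77) and 0.276 in MR72 (0.190 to 0.388). Both pooled intervals of MG72 lay above those of MR72, though these intervals cover counting error only and leave out the spread between libraries. In a fit without the filter edgeR gave S100a8 an adjusted p of 0.144 at 72h, and DESeq2 gave 0.0424. S100a9 had 0.292 with edgeR and 0.201 with DESeq2 at 72h, and over both times and at 24h neither gene had an adjusted p under 0.05 with either tool. For the comparisons with time edgeR gave none under 0.05, and DESeq2 gave no adjusted p.

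**Figure D3:**
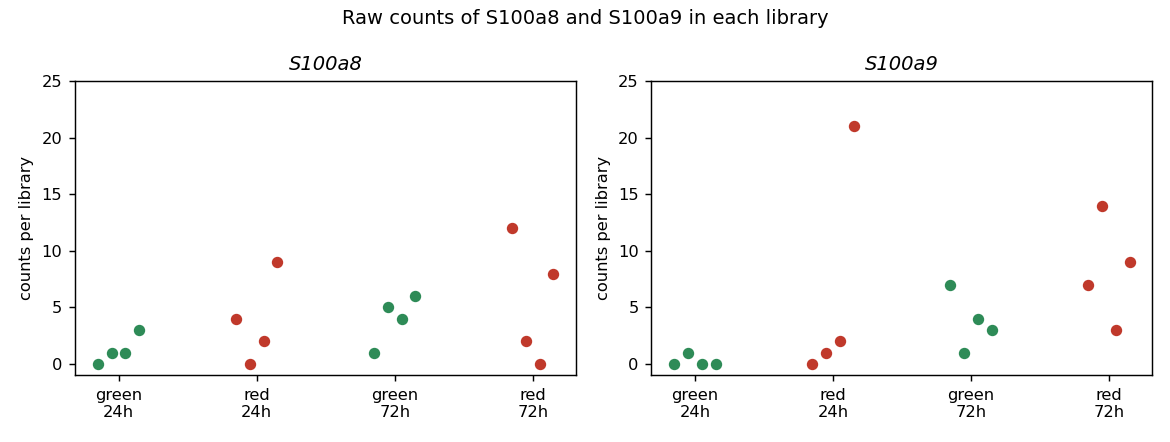
Raw counts (y axis) of S100a8 and S100a9 in the 4 libraries of each group (x axis), each point 1 library. No library exceeded 12 counts of S100a8 or 21 counts of S100a9.

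The log2 ratio of S100a8 to S100a9 within a library needs no scaling between libraries. With 0.5 added to each count, it was 0.605 ± 1.57 (SD, n = 8) in Kaede-green and -0.545 ± 1.94 (SD, n = 8) in Kaede-red libraries. The difference of -1.15 had p = 0.197 in an exact two-sided permutation test that relabelled colours within each time point. The ratio rests on a few counts in each library and was not resolved at this depth.

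Transcripts of genes that share the sorted cells' origin give a scale for these low levels. The lysozyme gene Lyz2 had 1345 to 26100 counts per library and the monocyte gene Plac8 1027 to 7510. Over both times 9.96% of all tested genes were called higher and 10.3% lower, as the share beside the list counts that follow. Of 15 listed neutrophil genes 6 passed the filter, with 1 higher, 3 lower and 2 not called over both times. The summed CPM of the 15 was 42.9 to 53.9 in MG24, 24.98 to 35.9 in MR24, 35.5 to 52.1 in MG72 and 41.7 to 47.0 in MR72 libraries, and Ngp was at 0 in every library. Of 8 monocyte genes 5 were lower in Kaede-red cells and 0 higher (Plac8 -1.91, Hp -1.51 on the log2 scale), and of 8 monocyte and macrophage genes 5 were higher and 1, Lyz2 at -1.25, was lower. The summed CPM of the monocyte genes was 1017 to 1675 in MG24, 498 to 632 in MR24, 764 to 1157 in MG72 and 530 to 805 in MR72 libraries. It was therefore lower in MR24 than in MG24 libraries without overlap, as S100a4, S100a6, S100a10 and S100a13 were, and overlapped at 72h. Plac8 alone held a large part of this sum, with mean CPM of 847 in MG24, 223 in MR24, 541 in MG72 and 145 in MR72 libraries. Of 6 fibroblast genes, with 4 tested, 3 were lower and 0 higher, with a summed CPM of 40.3 to 52.2, 19.9 to 37.3, 45.4 to 49.8 and 12.02 to 19.1 in the same order of groups. All 3 endothelial genes were called (Pecam1 1.02 and Kdr 1.06 higher, Cdh5 -1.42), and their summed CPM was 10.03 to 15.9, 17.7 to 22.5, 9.75 to 18.96 and 21.9 to 36.6, higher in red libraries without overlap at either time. The cells were sorted as CD45+, and the source of the fibroblast and endothelial transcripts was not tested. Of 2 tested dendritic cell genes 1 was higher, Ccr7, which had 0 counts in all MG24 libraries and at most 90 in any library. With scaling by the total outside Rn45s, 6123 of the 9642 tested genes were called over both times in either direction. Under that scaling Plac8 (-1.17), Hp (-0.73) and Lyz2 (-0.46) were still lower, but 3 of the 8 monocyte genes were called higher and 3 lower. Of the 6 tested neutrophil genes 2 were higher and 1 lower, and of the 4 tested fibroblast genes 1 was lower. The part of these other cell types in the S100 levels was not tested.

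The remaining members of the family were hardly detected. Of 15 other S100 symbols sought, 9 were listed in the count table and 0 passed the filter. S100a16 had at most 5 counts in any library, S100a3 and S100a14 at most 4, S100a2 at most 3, S100a5 and S100b at most 2, S100a7a and S100g at most 1, and S100z was at 0 in all 16 libraries.

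Genes linked to S100 proteins are given by list, as binding partners, receptors with their complexes, intracellular targets, and transcription factors known for S100a8 and S100a9. Beside them, 9.96% of all tested genes were called higher and 10.3% lower over both times. Of 9 genes, the annexins and Ahnak, 2 rose over both times (Anxa4 by 0.79 and Anxa5 by 0.96 on the log2 scale), 0 fell and 7 did not pass the test. Anxa2, the partner of S100a10, had a log2 fold change of -0.21 (SE 0.15, adjusted p = 0.381, edgeR), and Anxa1, the partner of S100a11, had 0.04 (SE 0.15, adjusted p = 0.898). The S100a10 transcript thus fell in Kaede-red cells in a comparison where Anxa2 did not pass the test, though the difference between the pair of changes was not tested. Of 10 tested receptor genes 2 rose, the lipopolysaccharide receptor Tlr4 by 0.58 and the scavenger receptor Cd36 by 1.85, and 2 fell, the activation marker Cd69 with -1.11 and the inhibitory lectin Cd33 with -1.36. Ager, which encodes the receptor for advanced glycation end products, had 0 to 5 counts per library. Of 5 tested intracellular targets edgeR called 0 over both times, where Cacybp, the S100a6 partner, had the smallest p (-0.37, adjusted p = 0.123). At 72h 1 target was higher (Capzb, 0.62, adjusted p = 0.0313) and 1 lower (Cacybp, -0.76, adjusted p = 0.0217), beside 8.07% of all tested genes higher and 8.76% lower. Cacybp was also lower at 72h than at 24h in Kaede-red cells (-0.75, adjusted p = 0.0318). Of 5 tested transcription factors known for S100a8 and S100a9, Cebpa rose by 1.02 and Stat3 by 0.48 over both times, Cebpb fell with -0.40, and 2 were not called. Cebpb had -0.89 at 24h and 0.078 at 72h, and Stat3 had 0.026 at 24h and 0.94 at 72h. The counts of these lists depend on the scaling. Scaling by the total outside Rn45s raised the median gene by 0.77 on the log2 scale over both times. With it 6123 of the 9642 tested genes were called in either direction. All 9 genes of the annexin and Ahnak list were called higher, and 7 of the 10 receptors higher and 0 lower. Of the 5 intracellular targets 3 were higher and 0 lower, and of the 5 transcription factors 4 were higher and 0 lower. Under that scaling Cebpb turned to 0.36 (adjusted p = 0.0374), Anxa2 to 0.57 (adjusted p = 0.00181) and Cacybp to 0.40 (adjusted p = 0.0589). Cd69 (-0.34) and Cd33 (-0.62) were no longer called.

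Within each library, ratios of counts between a pair of S100 genes need no scaling. S100a4 to S100a6 was 0.934 to 1.49 in MG24, 0.442 to 0.603 in MR24, 1.12 to 1.48 in MG72 and 0.429 to 0.735 in MR72 libraries, so that the colours did not overlap. S100a11 to S100a10 was 0.119 to 0.37 in MG24, 0.251 to 0.537 in MR24, 0.0495 to 0.287 in MG72 and 0.75 to 1.16 in MR72 libraries, and the MR72 libraries stood above the other 3 groups. Both ratios were chosen after their values were seen and carry no test.

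**Figure D4:**
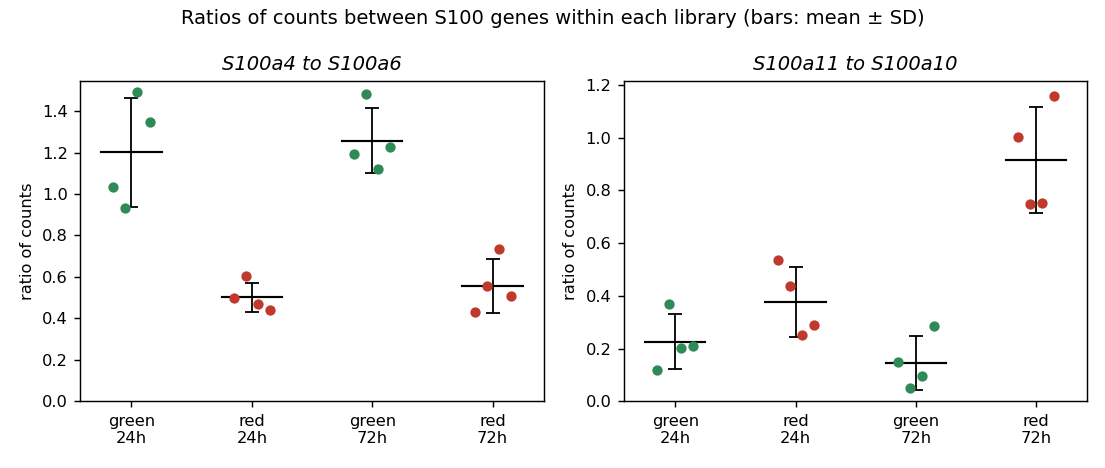
Ratio of raw counts within a library (y axis, from 0) of S100a4 to S100a6 (left) and of S100a11 to S100a10 (right) in the 4 groups (x axis), with points for libraries and black bars for mean ± SD. The left ratio is above 0.9 in all green and under 0.74 in all red libraries, and the right ratio is highest in red libraries at 72h.

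Across libraries within a colour, 8 relations between levels were computed by exact permutation of pairings, and none had a Benjamini-Hochberg adjusted p under 0.05. S100a4 with S100a6 had r = 0.86 (p = 0.0116, adjusted p = 0.0931, exact permutation) and rho = 0.43 (p = 0.299, adjusted p = 0.598) over the 8 Kaede-red libraries, and r turned to -0.22 without the 2 libraries farthest from the median of S100a4, so that it rested on those. Over the 8 Kaede-green libraries the pair had r = 0.73 (p = 0.0439, adjusted p = 0.175, exact permutation) and rho = 0.74 (p = 0.0458, adjusted p = 0.367), and 0.77 without the 2 farthest. S100a10 with S100a11 had r = 0.083 in Kaede-green and -0.53 in Kaede-red libraries, with adjusted p of 0.956 and 0.429 by exact permutation.

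As a description over 16 libraries, the deviations of log2 CPM from the group means were set beside those of 1488 or 1489 well-expressed genes. The libraries share their depth and scaling, so these values carry no p. S100a10 was most like Rps24 (r = 0.97), Rpl35 (0.96) and Rps25 (0.94), S100a4 most like Rps9 (0.88), Mrpl52 (0.86) and Wfdc17 (0.86), and S100a6 most like Rpl37a (0.91), Brk1 (0.91) and Tmsb4x (0.90). S100a11 was most like Sdc3 (0.92), Shisa5 (0.90) and Pira6 (0.89), S100a13 most like Arpc3 (0.88), Btg2 (0.82) and Eif6 (0.80), and S100a1 most like Rps28 (0.81), Cxcl10 (0.78) and Rps26 (0.76). Among the S100 genes, S100a4 with S100a10 had r = 0.83, S100a4 with S100a6 0.75 and S100a6 with S100a10 0.72, whereas S100a11 had values between -0.18 and 0.0011 with the other 5.

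Short genes as a class were lower in Kaede-red cells, and the tested S100 genes are short. Exon lengths were 511 bp for S100a11, 584 bp for S100a4, 694 bp for S100a1, 715 bp for S100a13, 1212 bp for S100a10 and 1367 bp for S100a6. The 237 tested genes under 750 bp had a median log2 fold change of -0.997 over both times (10th to 90th percentile -2.17 to 0.25), and 56.1% of them were called lower. The 6774 genes of 3000 bp and over had a median of 0.10 and 6.75% called lower, and the 97 ribosomal protein genes had -1.003 and 80.4%. Over both times S100a4 at -2.35 stood below the 10th percentile of its length class, while S100a13, S100a1 and S100a11 stood inside that range. The 481 genes of 750 to 1500 bp had a median of -0.26 and a 10th percentile of -1.17, below which S100a10 stood at -1.70, with S100a6 at its edge. These classes use the exon length of all transcripts. The principal transcripts of S100a10 (477 to 685 bp) and S100a6 (464 to 731 bp) are under 750 bp. Beside the class under 750 bp, the values of both genes over both times lie inside the range. At 24h S100a4 (-2.39) was below the 10th percentile of genes under 750 bp (-1.64), but at 72h S100a4 (-2.31) lay inside the range of that class (median -1.33, 10th to 90th percentile -2.89 to 0.36) and S100a11 (0.96) above it.

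**Figure D5:**
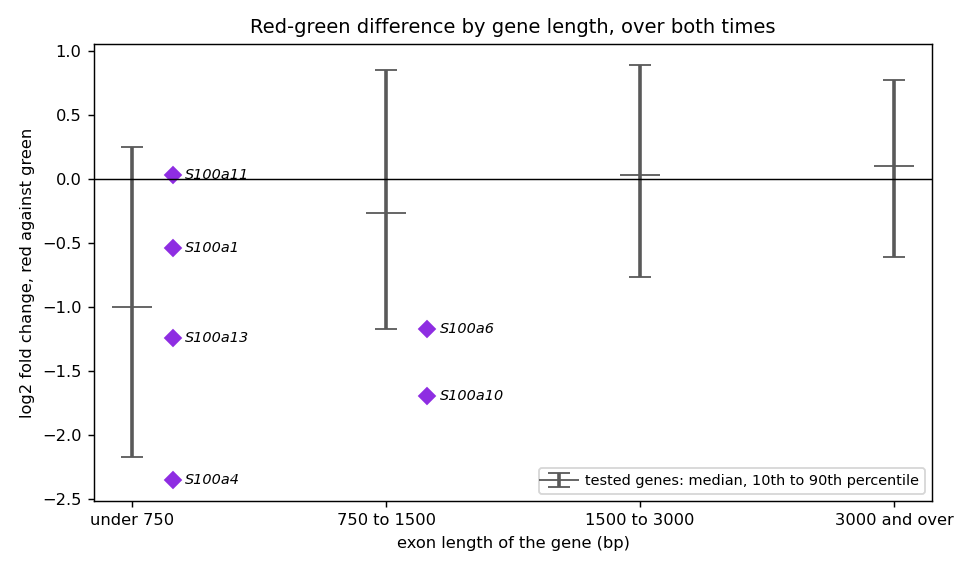
Log2 fold change, red against green, over both times (y axis) by exon length of the gene in bp (x axis), with grey bars for the median and the 10th to 90th percentile of tested genes and purple diamonds for the 6 tested S100 genes. The median falls from 0.10 in genes of 3000 bp and over to -0.997 in genes under 750 bp.

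When a trend on gene length was taken out of each library, an alternative added after seeing the data, S100a4 (-2.08), S100a10 (-1.66), S100a6 (-1.17) and S100a13 (-0.999) were still called lower over both times. The offset used the exon length of all transcripts, which for S100a6 and S100a10 is longer than their principal transcripts. With the Rn45s share of each library as a covariate, S100a4 (-1.95, adjusted p = 0.00031, edgeR) and S100a10 (-1.27, adjusted p = 0.0065) were called, and S100a6 (-0.86, adjusted p = 0.077) and S100a13 (-0.93, adjusted p = 0.28) were not. The covariate moves with colour, so that its part and that of time in the tumour cannot be told apart fully.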

How the data were processed

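The authors trimmed reads with Trim Galore and mapped them to mm10 by HISAT2, with reads per gene from featureCounts and FastQC named for quality. Libraries were made from total RNA with a stranded pico input kit, and the strand setting of the counting is not given in the sources used here. The deposited values are raw counts per gene, with no normalization, and 0 value columns stayed unused. The combined deposited table held the same columns and was not read.

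The 8 members and all gene lists were chosen with earlier results of these data known. Genes named are the 8 members, all other listed S100 symbols, genes of the lists called over both times (or the smallest p), the 3 genes most like each member, and genes chosen after their values were seen where the text says so or uses them as a scale. Testing used edgeR 4.0.16 in R 4.3.3 (TMM, filterByExpr, quasi-likelihood test, 1 mean per group, 16 libraries in a single fit, Benjamini-Hochberg adjustment over 9642 genes, calls at 0.05). Scaling by library size alone was not used, since Rn45s takes most counts. DESeq2 1.42.0, RLE, other filters, scaling outside Rn45s, a replicate block, a Rn45s covariate and leaving out each library were alternatives. Intervals are exact Poisson, at 95%, for counting error only. The script was tested on simulated data. Replicate libraries differed by a chi-square of 3.21 to 95.6 per gene over 24 pairs, so none was a copy. P-values of edgeR set a difference between groups against the spread between libraries within groups, estimated with information from all genes. Those of the ratio and the correlations come from exact permutation. Lengths came from GENCODE M21 on GRCm38.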

Additional observations from a re-analysis of the deposited data

Results flagged for a closer look

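The red-green difference of S100a11 differed between 72h and 24h by 1.86 on the log2 scale (SE 0.40, adjusted p = 0.0281, edgeR's quasi-likelihood test of the interaction), the 1 result singled out among the 6 tested S100 genes by a test of the difference itself. The 4 MR72 libraries were all above the 4 MG72 libraries, and the MR24 libraries overlapped the MG24 libraries. The value was 1.57 (adjusted p = 0.058) with scaling by the total outside Rn45s, 1.76 (adjusted p = 0.028) with the Rn45s share as a covariate and 2.44 (adjusted p = 0.00089) with the gene length offset. No library stood apart from the others of its group for any of the 6 genes by Dixon's test over 24 sets of 4 values.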

How the results depend on the processing

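The calls on S100a4 and S100a10 at each time and over both held under all alternatives run, including each left-out library, and those on S100a6 and S100a13 over both times held under all except the Rn45s share covariate. With that covariate the number of S100 genes called lower went to 2 over both times and to 3 and 2 at 24h and 72h, and the number called higher at 72h went to 0. Scaling by the total outside Rn45s moved the median gene by 0.77 over both times and by 0.88 and 0.65 at 24h and 72h, and gave 1 S100 gene called higher over both times (S100a11, 0.79), 2 lower at 24h and 0 for the change with time. With time in Kaede-red cells 1 S100 gene, S100a11, was called higher without a filter, with at least 10 counts in every library, with only the groups compared and with the length offset, and in Kaede-green cells 1 was called lower without a filter.

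Directions that turned were, with scaling by the total outside Rn45s, S100a1 (0.21 over both times and 0.083 and 0.34 at 24h and 72h), S100a11 at 24h (0.0048), S100a13 in Kaede-green with time (0.15) and the change with time of S100a4 (-0.22) and S100a6 (-0.29). The change with time of S100a6 was also -0.0077 with DESeq2, -0.0083 with RLE, -0.12 with at least 10 counts in every library and -0.055 with the replicate block, where S100a4 had -0.039 with at least 10 counts and S100a13 in Kaede-green with time had 0.028. The Rn45s covariate gave -0.62 for S100a11 over both times and 0.033 for S100a13 in Kaede-green with time. The length offset gave 0.22 for S100a1 at 72h, 0.24 for S100a4, 0.11 for S100a1 and 0.18 for S100a13 in Kaede-red with time, and 0.22 for the change with time of S100a10 and of S100a13. None of these turned values passed the test. The cause was not tested.

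Without the 2 farthest libraries r was -0.14 (S100a8 with S100a9) and -0.40 (S100a8 with the neutrophil genes) in Kaede-green and -0.22 (S100a4 with S100a6) in Kaede-red libraries. As deviations from the time-point mean r was -0.31 (S100a8 with S100a9) and -0.29 (S100a10 with S100a11) in Kaede-green and 0.057 (S100a10 with S100a11) in Kaede-red libraries.

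Leaving out 1 library gave 3 to 5 S100 genes lower at 24h, 0 to 1 higher at 72h, 0 to 1 higher with time in Kaede-red cells and 0 to 1 for the change with time. S100a13 at 24h ranged from -1.27 to -1.03 and lost its call without MG24 replicate 1, MR24 replicate 2 or MR24 replicate 3. S100a11 ranged from -0.10 to 0.24 over both times, at 24h from -1.09 to -0.61, at 72h from 0.70 to 1.37, 0.71 to 0.94 in Kaede-red with time and 1.55 to 2.26 for the change with time. S100a1 at 72h ranged from -0.50 to 0.13, S100a13 from -0.37 to 0.093 in Kaede-green with time and -0.58 to 0.050 for the change with time, and that change from -0.20 to 0.30 for S100a4 and -0.10 to 0.20 for S100a6. The S100a8 to S100a9 ratio difference ranged from -1.66 to -0.86 and passed its test without MR24 replicate 1.

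Whether libraries of the same replicate number share an animal is not stated. A check on deviations from the group means could not decide it, since each group has 4 libraries and the deviations also hold differences in depth and scaling. The r of same-numbered libraries was 0.049 to 0.15 at 24h and -0.018 to 0.029 at 72h. Of 8 green libraries 2, both at 24h, correlated best with their own number. With the replicate block S100a11 at 24h was -0.87 (adjusted p = 0.069) and lost its call, and the ratio difference was -1.15 (exact p = 0.305). Over all genes the change with time called 74 genes, and 344 with DESeq2, 216 without a filter, 161 with at least 10 counts, 200 with the length offset and 34 with the Rn45s covariate, and leaving out 1 library gave 2 (without MR24 replicate 3) to 157. Scaling outside Rn45s called 6123 over both times and 4647 and 3623 at 24h and 72h, beside 1950, 724 and 1623, and the covariate called 156, 206 and 102. In Kaede-red with time 836 genes were called, and 1611 with only the groups compared and 110 with the covariate, and leaving out 1 library gave 291 (without MR72 replicate 1) to 1118. In Kaede-green 0 were called, and 0 to 2 with 1 library left out, 14 with DESeq2, 37 without a filter and 3 with the length offset. S100a8 and S100a9 are limited by depth, at most 12 and 21 counts per library.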
